A study of Mus musculus with 34 samples.

Results

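The livers given a guide RNA against Smyd2 were set against livers given a guide against GFP or LacZ, sequences that the mouse genome does not hold. Of the 35976 gene symbols in the expression table, 17403 were compared, namely those with an FPKM (fragments scaled by gene length and library size) that reached 1 in at least 5 of the 12 livers. The 12 livers comprised 6 labelled Smyd2 KO, 4 labelled sgGFP and 2 labelled sgLacZ, and the last 2 groups were pooled as the control. In the whole series 34 livers were measured, the others carrying guides against Bcl6 (5 livers), Irs1 (5), Srebf1 (5) or Tbx3 (7).

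All animals were C57BL/6 mice homozygous for TetO-Cas9 and for Rosa-rtTA, an arrangement in which doxycycline switches on Cas9 through the reverse tetracycline transactivator. Each animal received its guide RNA in an adeno-associated virus (AAV) and was fed a Western diet for 3 months. The control livers therefore shared the Cas9 alleles, the virus and the diet with the Smyd2 KO livers, and differed in the guide. The labels do not give the age or sex of the animals or the share of cells that was edited. RNA came from whole liver, so fewer cells of a type and less RNA per cell cannot be told apart.

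SMYD2 is a lysine methyltransferase of the SET and MYND domain family. It was described as a histone methyltransferase and is known to methylate proteins outside chromatin, among them p53, RB1 and HSP90. In the liver on a Western diet, hepatocytes take up and make fatty acids and cholesterol, store triglyceride in droplets and release lipoproteins, while stellate cells and macrophages take part in scarring and inflammation. The comparison asks whether losing Smyd2 changes the messenger RNA of this fatty liver.

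Over the 34 livers the depth implied by the smallest non-zero values was 2110000 to 3130000 per library, and 2430000 to 2670000 in the Smyd2 KO livers. That figure assumes FPKM scaled by counted reads and by annotated transcript length, which was not tested. The FPKM of a library summed to 2790000 to 3090000, which is high for that scaling, so the implied depth is not to be read as a number of reads. Between 16492 and 17382 genes reached 1 FPKM in a control liver, against 16692 to 17277 in a Smyd2 KO liver. Pairs of the 12 livers correlated at 0.918 to 0.971 on the log2 scale across genes, which are not independent replicates. The first principal component of the 12 livers held 23.9% of the variance. sgGFP replicate 3, Smyd2 KO replicate 6 and sgGFP replicate 1 lay at one end of it, with scores of 79.4, 54.7 and 42.4, and Smyd2 KO replicates 1, 3 and 4 lay at the other, between -42.8 and -34.6. Nothing in the labels says which livers were collected or sequenced together.

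Smyd2 itself lies on chromosome 1 of GRCm38, at chr1:189880492-189922363 on the minus strand, and is a protein-coding gene. Its start region is shown because it is the targeted locus. The sequence is from RefSeq, build GRCm38.p6, and runs from 250 bases before the annotated start to 50 after it (chr1:189922242-189922541, minus strand); capitals mark a match to TTCNNNGAA, the letters bound by STAT5 and BCL6, which reads the same on both strands.
Smyd2: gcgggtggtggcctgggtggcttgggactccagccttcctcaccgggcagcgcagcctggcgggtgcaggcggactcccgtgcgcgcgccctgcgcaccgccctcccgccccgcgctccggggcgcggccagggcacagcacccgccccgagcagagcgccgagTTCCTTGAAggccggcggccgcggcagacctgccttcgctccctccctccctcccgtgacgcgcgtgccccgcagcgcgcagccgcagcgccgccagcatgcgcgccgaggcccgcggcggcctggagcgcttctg
In all, 8.47% of 27025 gene start regions of this length hold such a match. The guide's own position is not given in the sources used here.

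Smyd2 mRNA was measured at 61.7, 91.7 and 121 FPKM in the lowest, median and highest Smyd2 KO livers. In the control livers the same values were 81.6, 122 and 147 FPKM. The groups overlapped, and Smyd2 KO replicate 1, at 121 FPKM, lay above the control mean. The means were 93.5 ± 22.8 and 114.8 ± 26.1 FPKM (SD, n = 6 each), a log2 difference of -0.30 with a 95% interval of -0.63 to 0.04 (limma, adjusted p = 0.727). An exact two-sided permutation test over the 924 splits of the 12 livers gave p = 0.169, where the smallest possible value is 0.00216. The sum of reads over a gene does not show the edited bases, so it does not test whether the protein was lost, and the livers are called Smyd2 KO by their label.

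Among the other SMYD genes, Smyd3, a lysine methyltransferase of the same family, was at 26.4 ± 11.4 FPKM in Smyd2 KO and 37.0 ± 6.76 in control livers (SD, n = 6; log2 difference -0.56, adjusted p = 0.515). Smyd1, known for its part in muscle, was at 3.41 ± 1.68 and 3.31 ± 1.27 FPKM. Smyd4 was at 21.1 ± 6.81 against 18.5 ± 4.48 FPKM, and Smyd5 at 10.3 ± 2.58 against 10.2 ± 3.08 FPKM. In a list of 13 genes whose proteins are known SMYD2 substrates, 9 lay above the control and 4 below, with a median log2 difference of 0.04. One of them, Stat3, a transcription factor of cytokine signalling, was at 459 ± 112 against 367 ± 51.6 FPKM, a log2 difference of 0.30 (adjusted p = 0.643).

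No gene of the 17403 was called at an adjusted p under 0.05 by limma, in either direction (0% higher and 0% lower). At an unadjusted p under 0.05, 680 genes were higher (3.91%) and 601 lower (3.45%), 1281 in all, and the smallest adjusted p was 0.121. In the same fit, against the same control livers, Bcl6 KO had 485 genes higher and 623 lower (2.79% and 3.58%), and Irs1 KO had 646 and 1545 (3.71% and 8.88%). Srebf1 KO had 46 and 39 (0.264% and 0.224%) and Tbx3 KO 233 and 285 (1.34% and 1.64%).

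The precision of each gene sets what this null can say. The median gene had a 95% interval of 0.468 on either side of its log2 difference, and for 73.1% of genes the whole interval lay within 1 log2 unit of no difference, that is, within a doubling or a halving. For the 5788 genes with a mean under 10 FPKM this held for 43.9%, and for the 4054 genes of 100 to 1000 FPKM for 96.7%. For 35 genes every Smyd2 KO liver lay above every control liver (0.201%), and for 29 every one lay below (0.167%).

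The genes of smallest p were looked at after their values were seen. Stx4a, at chr7:127824294-127849019, encodes a syntaxin of the plasma membrane that serves in vesicle fusion. It was at 115, 175 and 223 FPKM in the lowest, median and highest Smyd2 KO livers, against 245, 385 and 606 in the control livers, so the groups did not overlap. Its log2 difference was -1.22 (95% interval -1.68 to -0.75, adjusted p = 0.121), and the adjusted p was 0.0273 to 0.393 as single livers were left out.

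Vegfb, at chr19:6982473-6987651, encodes a growth factor that acts on endothelial cells through VEGFR1. It ranged over 108, 146 and 167 FPKM in Smyd2 KO livers and 156, 236 and 320 in control livers, with 1 control liver, sgGFP replicate 4 at 156 FPKM, inside the Smyd2 KO range. The log2 difference was -0.77 (adjusted p = 0.146). Against the same control livers, Vegfb was also called lower in Irs1 KO livers (log2 difference -1.01), but not in Bcl6, Srebf1 or Tbx3 KO livers. Frrs1, which encodes a ferric reductase, was at 348, 402 and 618 FPKM against 567, 809 and 1282, a log2 difference of -0.87 (adjusted p = 0.146). Here the 2 sgLacZ livers, at 617 and 567 FPKM, lay beside the 2 highest Smyd2 KO livers, at 604 and 618. Frrs1 was also called lower against control in Srebf1 KO (log2 difference -1.01) and Tbx3 KO livers (-0.96), but not in Bcl6 or Irs1 KO livers.

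Serpina1a and Serpina1c encode forms of alpha-1-antitrypsin, the protease inhibitor that hepatocytes secrete. Serpina1a was at 1168, 1404 and 1703 FPKM in Smyd2 KO livers and 825, 1012 and 1121 in control livers, without overlap (log2 difference 0.51, adjusted p = 0.146). It was also called higher against control in Bcl6 KO (log2 difference 0.63), Irs1 KO (0.91) and Tbx3 KO livers (0.36), but not in Srebf1 KO livers. From the mean of the other knockouts, Smyd2 KO differed by -0.08 log2 units (limma adjusted p = 0.715). Serpina1c was at 560, 1049 and 1466 against 314, 544 and 650 FPKM (log2 difference 0.94, adjusted p = 0.170). It too was called higher against control in Irs1 KO (log2 difference 1.62), Srebf1 KO (1.13) and Tbx3 KO livers (0.87), but not in Bcl6 KO livers. The Serpina1 genes are close copies of one another, so reads may have been split between them and each value is uncertain.

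Map2k2 encodes the kinase MEK2, which activates ERK. It was at 499, 632 and 674 FPKM in Smyd2 KO livers and 814, 890 and 979 in control livers, with a gap between the groups (log2 difference -0.54, 95% interval -0.78 to -0.31, adjusted p = 0.170). Pear1, a receptor of platelets and endothelial cells, also did not overlap, with 39.98, 52.6 and 56.4 FPKM below 61.9, 71.5 and 94.3 (log2 difference -0.58, adjusted p = 0.170). Pear1 was also called lower against control in Irs1 KO (log2 difference -0.46) and Tbx3 KO livers (-0.59), but not in Bcl6 or Srebf1 KO livers. Igtp, an interferon-induced GTPase, was at 81.1, 88.6 and 101 FPKM in Smyd2 KO and 25.8, 47.7 and 90.2 in control livers, and the control at 90.2 was again sgGFP replicate 4. Without that liver Igtp was called, at an adjusted p of 0.0136. Limch1, which encodes an actin-binding protein that activates myosin, was at 27.3 ± 7.68 against 76.1 ± 22.8 FPKM (SD, n = 6; log2 difference -1.45, adjusted p = 0.170), again without overlap. It was also called lower against control in Irs1 KO livers (log2 difference -1.82), but not in Bcl6, Srebf1 or Tbx3 KO livers. Stx4a, Map2k2 and Igtp were called against control in none of the other knockouts.

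**Figure D1:**
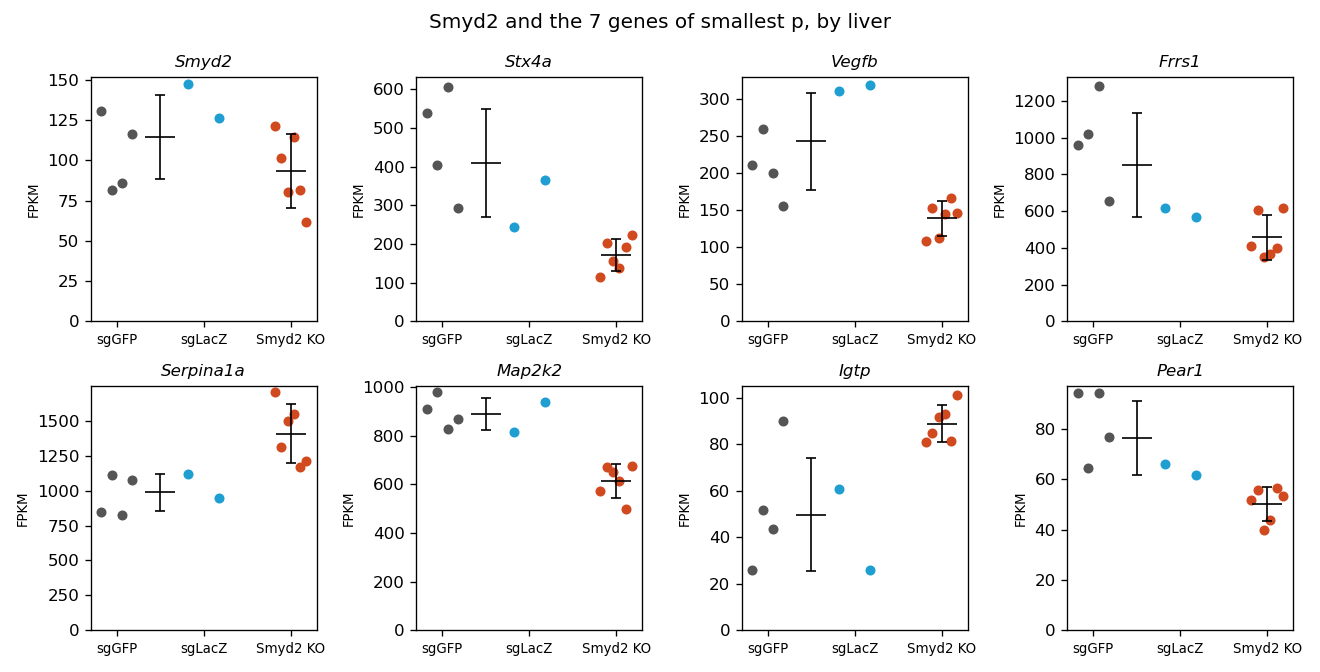
FPKM of Smyd2 and of the 7 genes of smallest p in each liver, with 1 point per liver, a bar at the mean and whiskers of 1 SD, where the black bar between sgGFP and sgLacZ is over the 6 control livers. Smyd2 overlaps between the groups, while Stx4a, Map2k2 and Pear1 lie lower and Serpina1a higher in every Smyd2 KO liver.

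The number of genes called changed with the guide that served as control. With the sgGFP livers alone, 6 genes were called higher and 9 lower, and for 13 of those 15 genes the mean of the 2 sgLacZ livers lay nearer to the Smyd2 KO mean than to the sgGFP mean. The exceptions were Pear1 and Stx4a. None of the 15 was called with both guides pooled, so genes whose sgLacZ values lay near Smyd2 KO were favoured by that choice. The count of 13 was therefore largely fixed and tests nothing. Mrpl14, a protein of the mitochondrial ribosome, is an example: 21.8 to 46.6 FPKM in sgGFP, 99.7 and 120 in sgLacZ, and 45.4 to 93.9 in Smyd2 KO livers. It was among the 2 genes called higher in sgLacZ than in sgGFP (log2 difference 1.59, adjusted p = 0.0264), with 0 lower. Rab7, a GTPase of late endosomes, was at 1141 to 1378 FPKM in sgGFP, 890 and 816 in sgLacZ and 819 to 1046 in Smyd2 KO livers. With sgLacZ alone as control, the 1 gene called was Vegfb, lower.

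No member of any of the 43 gene lists was called, so the lists are described by their counts at an unadjusted p under 0.05 and their medians, to be read against 3.91% and 3.45% of all genes and a median log2 difference of -0.00464 over all genes. Many genes of a list move together from liver to liver, so a count over a list is not a count of independent results.

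Male-biased genes had the highest share of members with an unadjusted p under 0.05 among the lists. These are liver genes that male mice express more than females under the pulsed growth hormone of males. Of 26 tested, 15 were higher at an unadjusted p under 0.05 and 25 lay above the control, with a median log2 difference of 1.04. The leading members were C8b, a component of the complement membrane attack complex, and Hsd3b5, a steroid dehydrogenase. C8b was at 169, 464 and 807 FPKM in the lowest, median and highest Smyd2 KO livers and 98.4, 193 and 217 in the control livers (log2 difference 1.32, adjusted p = 0.188). Hsd3b5 was at 0, 24.2 and 99.97 FPKM against 0, 0.593 and 3.75 (log2 difference 3.00, adjusted p = 0.350). Among the control livers only sgGFP replicate 2, at 2.39 FPKM, and sgLacZ replicate 1, at 3.75, reached 1 FPKM. Hsd3b5 was thus near the floor in the control and passed the filter through the Smyd2 KO livers, so its difference is no separate support for the count. Smyd2 KO replicate 5 lay within the control range for both genes, and replicate 6 did so for Hsd3b5. In Irs1 KO livers both genes were called higher against the same control livers, with log2 differences of 2.54 for C8b and 6.43 for Hsd3b5. In Bcl6 KO livers C8b was called lower (-1.76). The major urinary proteins Mup1 and Mup7 were at 467.5 against 42.6 and at 2777 against 287 FPKM, and since Mup genes are near-identical copies these values are uncertain. Of the 6 Mup genes tested, 5 were among the 15, so that part of the count comes from copies that reads may not tell apart.

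Liver by liver, the male-biased list was uneven within both groups. Its mean centred log2 level was 1.92, 1.25, 0.96 and 0.81 in Smyd2 KO replicates 1, 2, 3 and 4, but -0.29 in replicate 5 and -0.79 in replicate 6. In the control livers it ran from -1.54 in sgGFP replicate 3 to 0.64 in sgLacZ replicate 1, so the groups overlapped. Without Smyd2 KO replicate 1 the count at an unadjusted p under 0.05 was 9 rather than 15, and with the 2 sgLacZ livers alone as control it was 1. The 2 sgGFP livers with the lowest male-biased levels, replicates 3 and 1, were also those with the highest stellate levels among the controls, at 0.89 and 0.60, as was Smyd2 KO replicate 6 among the Smyd2 KO livers, at 0.85; the part of this in the male-biased values was not tested.

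Female-biased genes, the counterpart that the steadier growth hormone of females favours, had 18 of 22 members below the control and 3 lower at an unadjusted p under 0.05 (median log2 difference -0.33; 8 without sgGFP replicate 3, and 5 without sgLacZ replicate 1 or Smyd2 KO replicate 5). Cyp2a4, a steroid hydroxylase, was at 3.29, 7.36 and 34.9 FPKM in Smyd2 KO livers and 24.3, 45.8 and 78.9 in control livers (log2 difference -2.20, adjusted p = 0.170). Smyd2 KO replicate 5, at 34.9 FPKM, lay within the control range. Against control, Cyp2a4 was called lower in Irs1 KO (log2 difference -3.60) and Tbx3 KO livers (-2.74), called higher in Bcl6 KO livers (5.79) and not called in Srebf1 KO livers. Slc22a27, an organic anion transporter, was at 22.2 ± 19.4 against 49.98 ± 11.04 FPKM (SD, n = 6; log2 difference -1.50, adjusted p = 0.461).

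The start regions of Hsd3b5 (chr3:98645485-98645784, minus strand) and Cyp2a4 (chr7:26306942-26307241, plus strand) are shown as a male-biased and a female-biased example, from RefSeq, build GRCm38.p6, over the same window as for Smyd2. Capitals mark TATAAA, searched on both strands, which is found once in Cyp2a4, 28 bases before its start, and in 14.2% of all gene start regions.
Hsd3b5: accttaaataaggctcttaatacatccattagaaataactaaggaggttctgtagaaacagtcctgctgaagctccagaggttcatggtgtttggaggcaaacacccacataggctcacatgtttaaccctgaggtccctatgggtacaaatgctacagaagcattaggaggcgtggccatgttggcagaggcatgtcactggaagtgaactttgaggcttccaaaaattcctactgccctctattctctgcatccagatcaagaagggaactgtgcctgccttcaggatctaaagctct
Cyp2a4: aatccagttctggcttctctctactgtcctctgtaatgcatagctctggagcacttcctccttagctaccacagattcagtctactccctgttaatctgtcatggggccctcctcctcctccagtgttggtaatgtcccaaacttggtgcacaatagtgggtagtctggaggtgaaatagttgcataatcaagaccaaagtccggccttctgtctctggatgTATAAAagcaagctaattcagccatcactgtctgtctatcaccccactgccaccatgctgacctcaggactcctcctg
Neither window holds TTCNNNGAA, and that of Hsd3b5 holds neither set of letters.

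**Figure D2:**
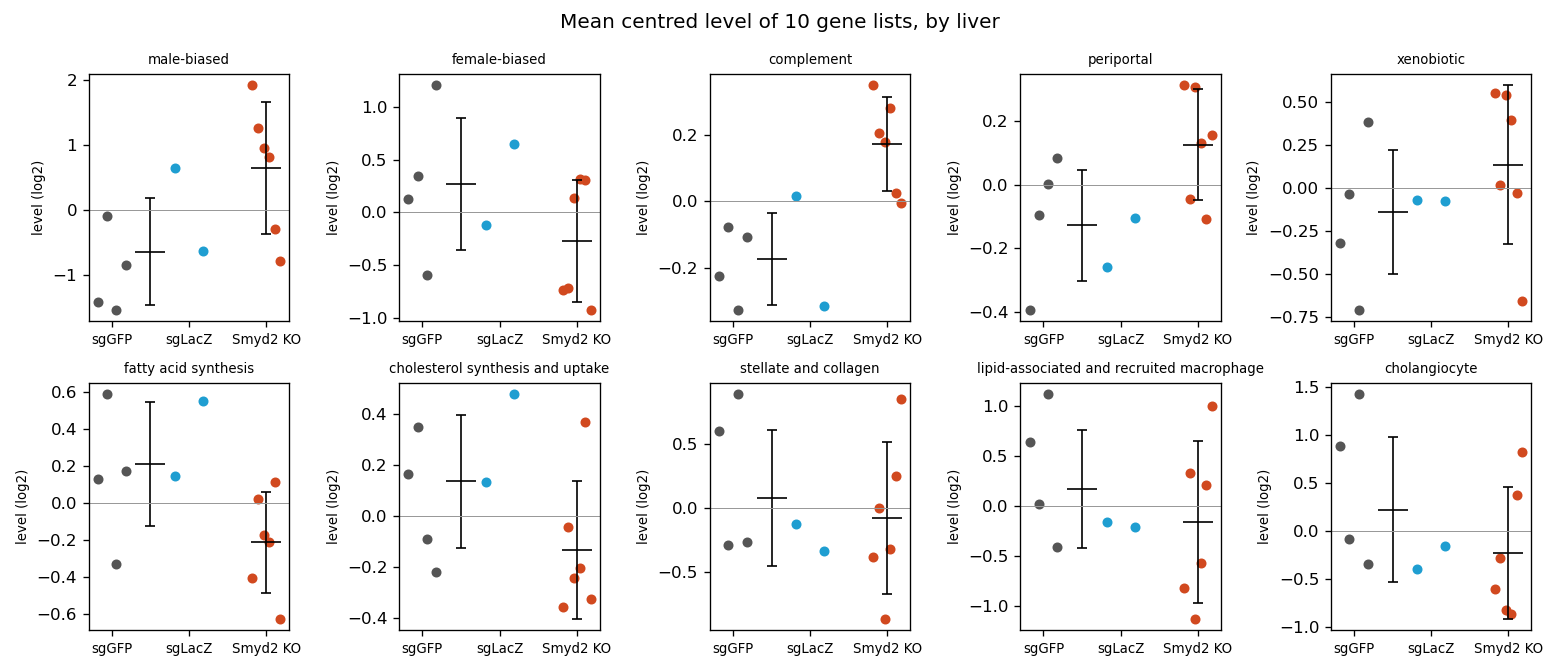
Mean centred log2(FPKM + 1) level of 10 gene lists in each of the 12 livers, with 1 point per liver, a bar at the mean and whiskers of 1 SD over the 6 control or 6 Smyd2 KO livers. Male-biased and complement levels are higher in most but not all Smyd2 KO livers, and stellate, macrophage and cholangiocyte levels are spread as widely within groups as between them.

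In the complement list 10 of 25 were higher at an unadjusted p under 0.05 and 23 lay above the control (median log2 difference 0.22), and 3 of those 10, C6, C8a and C8b, also belong to the male-biased list. C1ra, a protease of the first complement complex, was at 143 ± 18.5 against 117 ± 11.2 FPKM (SD, n = 6; log2 difference 0.28, adjusted p = 0.353). Hepatocyte markers counted 9 of 26 higher and periportal genes 9 of 23, with median log2 differences of 0.23 and 0.19. From the mean of the other knockouts, the medians of these lists were -0.19 and -0.323 log2 units, and that of complement was 0.15. With sgLacZ alone as control the counts were 6 for complement and 5 for periportal genes, and median scaling gave 5 for hepatocyte markers. Gls2, the glutaminase of periportal hepatocytes, was at 461 ± 106 against 316 ± 85.6 FPKM (log2 difference 0.55, adjusted p = 0.395). Gls2 was called higher against control in Bcl6 KO (log2 difference 0.60), Irs1 KO (0.99) and Tbx3 KO livers (1.22), but not in Srebf1 KO livers.

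At an unadjusted p under 0.05, 5 members each were higher among 26 coagulation, 30 apolipoprotein, 25 bile acid and 27 amino acid genes. The 4 counts moved with single livers. Without Smyd2 KO replicate 6 they were 10 for apolipoprotein, 10 for bile acid and 12 for amino acid genes, and without sgGFP replicate 4 they were 9 for coagulation, 8 for apolipoprotein and 8 for amino acid genes. Without Smyd2 KO replicate 4 they were 3, 2, 3 and 2 in the order named, and without replicate 3 they were 3, 3 and 2 for the last 3 lists. Without Smyd2 KO replicate 1 they were 3 for coagulation, 2 for bile acid and 2 for amino acid genes. Without sgLacZ replicate 1 they were 2 for apolipoprotein and 3 for bile acid genes, and without sgGFP replicate 3 they were 3, 3 and 2 for the last 3 lists, with 3 and 2 for the last 2 without sgGFP replicate 1. Serpind1, which encodes the thrombin inhibitor heparin cofactor II, was at 393 ± 77.4 against 276 ± 46.1 FPKM (SD, n = 6; log2 difference 0.51, adjusted p = 0.170), above the control mean in all 6 Smyd2 KO livers. Lcat, the plasma enzyme that esterifies cholesterol, was at 198 ± 36.1 against 146 ± 32.1 FPKM (log2 difference 0.44, adjusted p = 0.265). Slco1a1, a male-biased uptake transporter of organic anions and bile acids, was at 343 ± 237 against 85.4 ± 86.6 FPKM (log2 difference 1.98, adjusted p = 0.371).

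Xenobiotic genes counted 7 of 32 higher and 1 lower. The higher count was 0 without Smyd2 KO replicate 1 or 3, 3 without replicate 4 and 14 without Smyd2 KO replicate 6. Without sgGFP replicate 1 or 3, with sgLacZ alone as control or with the 12 livers fitted alone, the higher count was 1. It was 3 with median scaling and 13 with array weights. Cyp2c54, a cytochrome P450, was at 284 ± 220 against 83.8 ± 72.3 FPKM (SD, n = 6; log2 difference 1.66, adjusted p = 0.575), and the SDs are of the size of the means.

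Fatty acid synthesis was the list with most members lower at an unadjusted p under 0.05, 8 of 22, and 18 lay below the control (median log2 difference -0.50). Elovl6, which lengthens palmitate, was at 175, 328 and 482 FPKM in Smyd2 KO livers and 407, 662 and 1013 in control livers (log2 difference -1.06, 95% interval -1.65 to -0.48, adjusted p = 0.265). All 6 Smyd2 KO livers lay below the control mean, and the groups overlapped. Scd1, the stearoyl-CoA desaturase, was at 31020, 44150 and 59540 against 48520, 65450 and 88570 FPKM (log2 difference -0.57, adjusted p = 0.366). Scd1 was called lower against control in Irs1 KO (log2 difference -0.92) and Srebf1 KO livers (-0.77), but not in Bcl6 or Tbx3 KO livers. Elovl6 was called against control in none of the other knockouts. Fasn, fatty acid synthase, averaged 453 against 802 FPKM and Acaca, which makes malonyl-CoA, 574 against 850. The count was 5 without sgLacZ replicate 2 or Smyd2 KO replicate 1 and 13 without sgGFP replicate 3. From the mean of the other knockouts, the list's median log2 difference was -0.037.

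Other lipid lists had fewer members lower at an unadjusted p under 0.05. Cholesterol genes were below the control in 23 of 26 cases, with 3 lower at an unadjusted p under 0.05 (median log2 difference -0.23; 7 without Smyd2 KO replicate 5, 6 without sgGFP replicate 4). Fdps, which makes farnesyl diphosphate on the way to cholesterol, was at 157 ± 70.5 against 296 ± 118 FPKM (SD, n = 6; log2 difference -0.90, adjusted p = 0.446). Lipid droplet genes counted 3 of 25 lower (5 without Smyd2 KO replicate 5) and fatty acid oxidation genes 1 of 30 in each direction. Among 26 NRF2 and glutathione genes 6 were lower (2 without Smyd2 KO replicate 1 or 4, and 3 without Smyd2 KO replicate 3 or sgLacZ replicate 2), with Gstm3, a glutathione transferase, at 130 ± 111 against 257 ± 70.2 FPKM (log2 difference -1.30, adjusted p = 0.396).

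**Figure D3:**
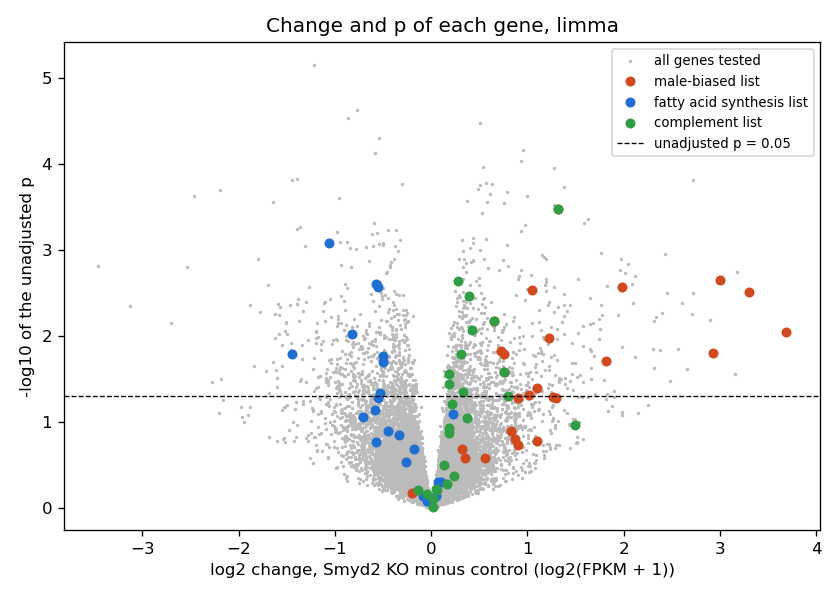
Log2 difference of Smyd2 KO minus control (x axis) against -log10 of the unadjusted limma p (y axis) for all 17403 genes, with 3 lists coloured. Male-biased members lie mostly on the right and fatty acid synthesis members mostly on the left, while no gene reaches an adjusted p under 0.05.

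The cell-type lists overlapped between groups. Of 33 stellate and collagen genes 0 passed an unadjusted p under 0.05 in either direction (limma; 5 lower without Smyd2 KO replicate 6), and of 19 endothelial genes 0 (2 higher without Smyd2 KO replicate 6). The stellate list's summed FPKM ran from 2528 to 5813 in Smyd2 KO livers and 2885 to 5812 in control livers. Col4a1, a basement membrane collagen, was at 136 ± 73.9 against 181 ± 71.7 FPKM (SD, n = 6). Among 19 genes of lipid-associated and recruited macrophages 1 was lower (0 to 4 as single livers were left out, the most without Smyd2 KO replicate 6), Cd63, a tetraspanin of lysosomes, at 53.7 ± 29.7 against 99.9 ± 57.7 FPKM (log2 difference -0.94, adjusted p = 0.668). Spp1, osteopontin, spanned means of 846 ± 707 and 1377 ± 880 FPKM.

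Cell cycle (28 genes), heat shock (16) and circadian genes (20) had 0 members at an unadjusted p under 0.05 in either direction by limma. Without Smyd2 KO replicate 6, 5 cell cycle members were lower, and without sgGFP replicate 2, 2 heat shock members were. Among 23 targets of p53, one of the proteins SMYD2 methylates, 1 was higher: Fas, the death receptor, at 123 ± 14.5 against 96.1 ± 26.9 FPKM (SD, n = 6; log2 difference 0.40, adjusted p = 0.584). That count was 0 without sgGFP replicate 1 or 2 or Smyd2 KO replicate 4, and without Smyd2 KO replicate 6, 2 members were lower. Cdkn1a, the cell cycle inhibitor p21, was at 26.9 ± 24.3 against 39.5 ± 22.2 FPKM. Of 23 stress response genes 2 were higher (4 without sgLacZ replicate 2, and 1 without sgGFP replicate 1, 2 or 4 or Smyd2 KO replicate 3, 4 or 5), with Sdf2l1, of the endoplasmic reticulum, at 26.3 ± 4.09 against 15.3 ± 5.37 FPKM (log2 difference 0.80, adjusted p = 0.294). Of 29 interferon-stimulated genes 1 was higher, Igtp, and 1 lower, Ifit1, at 39.1 ± 22.8 against 71.8 ± 33.7 FPKM (log2 difference -0.89, adjusted p = 0.414).

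Set against the mean of the 4 other knockouts, Smyd2 KO had 56 genes higher (0.322%) and 28 lower (0.161%) at an adjusted p under 0.05, 84 in all. The control livers do not enter this difference, but they count in the filter and in the spread that the fit estimates. Median scaling gave 23 higher and 66 lower, and quantile normalization 41 and 46. Leaving out Smyd2 KO replicate 2 gave 6 higher and 7 lower, replicate 3 gave 12 and 14, replicate 4 gave 15 and 16, replicate 5 gave 22 and 18, and replicate 1 gave 31 and 17. Against single knockouts, Smyd2 KO had 589 genes higher and 455 lower than Bcl6 KO (3.38% and 2.61%), and 648 and 205 against Irs1 KO (3.72% and 1.18%). It had 94 and 81 against Tbx3 KO (0.54% and 0.465%), and 4 and 11 against Srebf1 KO (0.023% and 0.0632%).

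Of the 84 genes, 67 were also called against Bcl6 KO and 53 against Irs1 KO, 33 against Tbx3 KO, 2 against Srebf1 KO and none against all 4 knockouts. For 16 of the 20 leading genes the Smyd2 KO median lay within the range of the control livers, and for all 16 another knockout was itself called against control. The 20 genes were chosen for their distance from the other knockouts. Where Smyd2 KO lay near control, a call in another knockout was therefore largely fixed by that choice and tests nothing. Serpina7, which encodes thyroxine-binding globulin, was at 446 ± 174 FPKM (SD, n = 6) in Smyd2 KO livers and 291 to 626 in control livers. It was at 85.5 ± 43.7 in Bcl6 KO, 110 ± 53.6 in Irs1 KO and 40.1 ± 34.9 in Tbx3 KO livers (log2 difference from the other knockouts 2.19, adjusted p = 0.000609). In Srebf1 KO livers it was at 303 ± 78.4 FPKM, from which Smyd2 KO was not called (limma adjusted p = 0.714). Serpina6, corticosteroid-binding globulin, was at 266 ± 39.7 FPKM in Smyd2 KO and 12860 ± 4817 in Bcl6 KO livers, with 173 to 267 as the means of the other 3 knockouts.

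Cyp4a12a, a male-biased fatty acid hydroxylase, was at 167 ± 90.1 FPKM (SD, n = 6) in Smyd2 KO livers, 40.1 to 193 in control livers and 6.74 ± 9.07 in Bcl6 KO livers. Its means were 90.7 in Irs1 KO, 82.3 in Srebf1 KO and 85.3 in Tbx3 KO livers, and of the single knockouts it was called against Bcl6 KO alone. Cidec, a lipid droplet protein that drives droplet fusion, was at 364 ± 103 FPKM against 94.7 ± 70.1 in Bcl6 KO, 61.7 ± 29.7 in Irs1 KO and 181 ± 110 in Tbx3 KO livers, with control livers at 338 to 745. Srebf1 KO livers were at 371 ± 92.7 FPKM, and the single-knockout differences from Srebf1 KO and Tbx3 KO were not called. Prlr, the prolactin receptor, was at 309 ± 149 FPKM and 8471 ± 2749 in Bcl6 KO livers. Its means were 371 in Irs1 KO, 421 in Srebf1 KO and 345 in Tbx3 KO livers, none of them called apart from Smyd2 KO. F10, coagulation factor X, was at 882 ± 158 FPKM in Smyd2 KO livers, with means of 1249 to 2318 in the other 4 knockouts and 785 to 1277 in the control livers.

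Magt1 and Map2k2 had lower values in Smyd2 KO livers than in the control livers, where neither was called, and were called lower against the mean of the other knockouts. Magt1 encodes a subunit of the oligosaccharyltransferase complex linked to magnesium transport. It was at 267, 306 and 349 FPKM in the lowest, median and highest Smyd2 KO livers and 392, 425 and 693 in control livers, without overlap (log2 difference -0.59, adjusted p = 0.243, not called). Its means in the other knockouts were 428 ± 50.5 (Bcl6), 643 ± 86.1 (Irs1), 458 ± 47.0 (Srebf1) and 451 ± 145 FPKM (Tbx3), and the difference from them was called (log2 -0.67, SE 0.12, adjusted p = 0.00639). That call held under all 20 other settings, with adjusted p up to 0.0313. Against single knockouts Magt1 was called against Irs1 KO (adjusted p = 0.000368) and not against Bcl6 KO (0.0644), Srebf1 KO (0.184) or Tbx3 KO (0.0796).

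Map2k2 was at 613 ± 68.6 FPKM in Smyd2 KO livers, and at means of 786 ± 47.7 (Bcl6), 959 ± 176 (Irs1), 799 ± 112 (Srebf1) and 778 ± 150 (Tbx3). The difference was called (log2 -0.42, adjusted p = 0.0293), but was no longer so when any 1 of Smyd2 KO replicates 1 to 5 was left out, with adjusted p up to 0.107. Of the single knockouts it too was called against Irs1 KO alone (adjusted p = 0.00301; 0.0725 for Bcl6, 0.265 for Srebf1 and 0.153 for Tbx3). Stx4a, at 171 ± 41.5 FPKM, was below the means of all 4, which were 250 to 317, without being called (log2 -0.70, adjusted p = 0.0716).

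**Figure D4:**
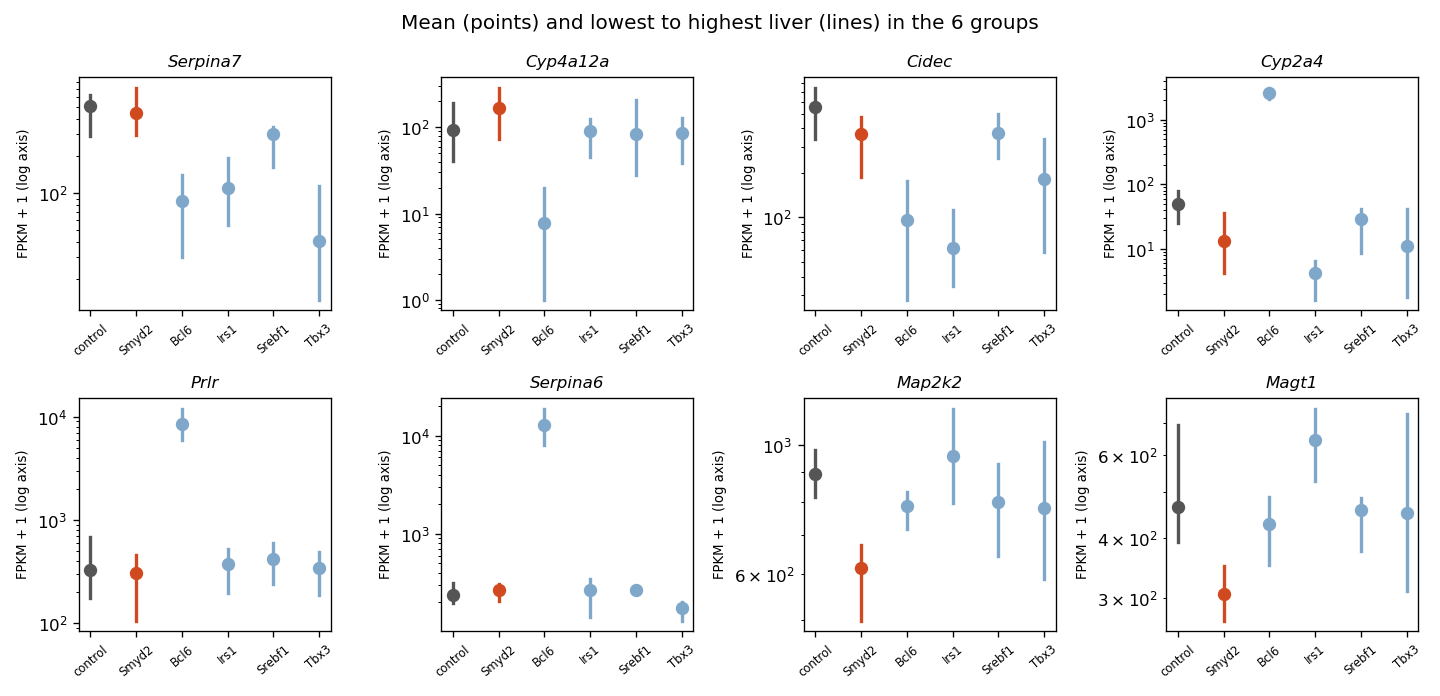
FPKM + 1 on a log axis in the 6 groups for 8 genes, with points at the mean and lines from the lowest to the highest liver. Serpina7, Prlr and Serpina6 in Smyd2 KO livers lie with the control while another knockout departs, and Map2k2 and Magt1 are lowest in Smyd2 KO livers.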

How the data were processed

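RNA of 34 livers was sequenced from stranded total RNA libraries, per the labels' protocols. The authors deposited FPKM per gene, and the submitters' processing notes name featureCounts 1.6.4 and the builds mm10 and GRCh38, without saying which served which step. FPKM are not counts, so no count test was used. Values were analysed as log2(FPKM + 1), which understates changes of low genes. Genes that reached 1 FPKM in 5 of the 12 livers were fitted with limma 3.58.1 in R 4.3.3 (empirical Bayes with a trend) over all 34 livers and 6 groups, with Benjamini-Hochberg adjustment over all 17403 genes and a threshold of 0.05. Members and gene lists were chosen with earlier results of these data known. Named genes were Smyd2 and its family, and the leading members of each list. Since none was called against control, the 10 most changed called genes per direction were taken against the mean of the other knockouts. For these, every Smyd2 KO liver had to lie on the same side of that mean. Genes of smallest p and genes called only under another setting were named after their values were seen. Fasn, Acaca, Mup1 and Mup7 were named outside these rules, by their means alone, and none of them was called against control. Other pseudocounts, filters, scalings, control groups, a replicate block, array weights and single livers left out were tried. The fit was tested on simulated data. The implied depth was taken from the value of 1 read, assuming annotated transcript lengths and scaling by counted reads. Replicates are separate livers by their labels. The limma p-values set a difference against the spread between livers within groups, estimated over all 34 livers. With the 12 livers fitted alone, the smallest limma adjusted p against control was 0.325 rather than 0.121. In that fit 1068 rather than 1281 genes had an unadjusted p under 0.05. The 13 mitochondrially encoded genes were not analysed here, and the values of a few genes are not reported here.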

Additional observations from a re-analysis of the deposited data

Results flagged for a closer look

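In 18 of 246 groups of 6 livers (Smyd2 KO or control, for each gene and list), 1 liver stood apart from the other 5, its gap to the nearest liver taking more of the whole range on the log2 scale than Dixon's 95% critical value. Chance alone gives about 1 in 20 such groups. Smyd2 KO replicate 6 stood apart for Mrpl14 (45.4 FPKM) and Rhoa (1609 FPKM), and for the level of pericentral (-0.52), fatty acid oxidation (-0.53), adipocyte and pancreas (-2.22, over 2 genes), circadian (-0.46) and nuclear receptor genes (-0.19). Other Smyd2 KO livers stood apart for Dgat1 (replicate 3, 78.3 FPKM), Acot2 (replicate 2, 71.7 FPKM), Polr2j (replicate 5, 11.4 FPKM), the neutrophil list (replicate 1, -1.32) and the fetal and imprinted list (replicate 5, 0.57).

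Among the controls, sgGFP replicate 3 stood apart for Magt1 (692.5 FPKM), the fatty acid oxidation list (-0.33) and the neutrophil list (1.34, over 4 genes). sgGFP replicate 4 stood apart for Lcat (209.5 FPKM) and Plg (1387 FPKM), and sgLacZ replicate 2 for C8b (98.4 FPKM).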

How the results depend on the processing

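Against control, 0 genes were called in either direction under another pseudocount, both other filters, both scalings, the 12 livers alone, array weights and the replicate block, and without sgGFP replicates 1 and 3 and Smyd2 KO replicate 6 together, a setting chosen after seeing the data. Calls appeared with sgGFP alone (6 higher, 9 lower) and with sgLacZ alone (0 and 1). As single livers were left out they ranged from 0 to 4 higher and 0 to 3 lower. Among them were Igtp higher and Stx4a and Vegfb lower without sgGFP replicate 4, Stx4a lower without sgLacZ replicate 1, and without Smyd2 KO replicate 6 Cadps2, Serpina1a and Serpina1c higher and Frrs1, Rhoa and Stx4a lower. With sgLacZ alone the log2 difference turned for Hist1h2bc (-0.10), Mrpl14 (-0.55), Polr2j (-0.0597), Rab7 (0.0807) and Zdhhc20 (0.0165); the cause was not tested. Against the other knockouts, the counts (56 higher, 28 lower) were 23 and 66 with median scaling, 317 and 158 with array weights, 41 and 46 with quantile normalization, 72 and 52 with no filter, 105 and 49 without the same 3 livers, and 6 to 61 higher and 7 to 34 lower as single livers were left out. Of the 30 genes named there, 8 were called under all 20 settings. Deviations of same-numbered livers correlated from -0.184 to 0.152, over too few pairs to decide whether livers of the same number were handled together. The replicate block gave 0 and 0 calls against control and 53 and 34 against the other knockouts. With that block, limma gave 1690 rather than 1281 genes at an unadjusted p under 0.05 against control, with 12 rather than 7 xenobiotic members higher. Low genes were the least precise, those under 10 FPKM having a median 95% half-width of 0.771.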

Other observations

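Some lists outside the comparisons above held few genes at an unadjusted p under 0.05. Of 18 Kupffer cell genes 2 were higher and 15 lay above the control; the 2 became 0 without sgGFP replicate 4 or Smyd2 KO replicate 4, and 1 without sgGFP replicate 1 or sgLacZ replicate 1. Spic, a transcription factor of iron-recycling macrophages, was at 12.2 ± 5.32 FPKM in Smyd2 KO and 6.86 ± 3.02 in control livers (SD, n = 6; log2 difference 0.71, limma adjusted p = 0.535). Marco, a scavenger receptor, was at 20.7 ± 25.5 against 3.50 ± 2.25 FPKM (log2 difference 1.58, adjusted p = 0.630). Of 18 iron genes 1 was higher, Tfr2, the transferrin receptor of hepatocytes that senses iron, at 1041 ± 124 against 826 ± 37.4 FPKM (log2 difference 0.33, adjusted p = 0.294). The 1 iron gene lower was Id1, a target of bone morphogenetic protein signalling, at 6.80 ± 5.71 against 11.3 ± 4.54 FPKM (log2 difference -0.96, adjusted p = 0.635). Without sgGFP replicate 3 or 4 or Smyd2 KO replicate 5 the higher count was 2, and without sgGFP replicate 2 or 3 or Smyd2 KO replicate 1 or 2 the lower count was 0. H19, an imprinted RNA of fetal liver, was at 9.27 ± 14.9 against 35.5 ± 24.8 FPKM (log2 difference -2.54, adjusted p = 0.294). Smyd2 KO replicate 5, at 39.3 FPKM, lay above the control mean of H19. From the mean of the other knockouts, H19 in Smyd2 KO differed by 1e-04 log2 units and was not called. Cldn7, a claudin of bile duct cells, was at 1.21 ± 0.788 against 6.81 ± 5.88 FPKM (log2 difference -1.57, adjusted p = 0.402), while the summed FPKM of the cholangiocyte list was 806 to 2852 in Smyd2 KO and 1218 to 4251 in control livers. None of these passed the adjusted test.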
